A study of Mus musculus with 28 samples.

Results

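Cytosolic ribosomal proteins are the protein part of the ribosome, the machine that reads messenger RNA and builds every other protein of the cell. They are described here in mouse liver as 49 probe sets of 35 genes, out of 12422 non-control probe sets on each array, on which 8251 genes had a probe set with a single symbol. A probe set was taken where the array annotation gave it a single gene symbol made of Rpl or Rps and a digit, or the symbol Rplp0, Rplp1, Rplp2 or Rpsa, without the Rps6k kinases. Of the 49, 22 probe sets of 17 genes belong to the large subunit and 27 probe sets of 18 genes to the small subunit. Another 39 ribosomal protein probe sets, whose annotation lists several symbols because near-identical copies share their sequence, were left out of the set, and Rplp1 and Rplp2 had no probe set with a single symbol.

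The series asked how the loss of Aag, a glycosylase that cuts alkylated bases out of DNA, changes gene expression once DNA has been methylated with methyl methanesulfonate (MMS). Liver RNA of WT (wild-type) mice and of Aag null mice, called Aag here, was hybridized to 28 Affymetrix MG-U74Av2 arrays. WT liver was read on 12 arrays, of which 3 came from untreated mice and 2, 3, 2 and 2 from mice sampled 6, 12, 24 and 48 h after MMS. Aag liver was read on 16 arrays, 4 untreated and 3, 2, 4 and 3 at those times. The labels give no strain, age, sex, dose or route, describe the Aag mice only as null, and leave unsaid whether each replicate is another animal. Each p-value therefore measures the spread between these samples, which may be technical.

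The large subunit joins amino acids and the small subunit decodes the message. Most ribosomal protein genes are transcribed at high and even rates, and their messages carry a run of pyrimidines at the 5′ end, through which nutrient and stress signals acting on the kinase mTOR control their translation. A few symbols under this naming are not standard subunits: Rps27l is a paralog of Rps27 known as a target of p53, Rpl39l a paralog of Rpl39 best known from testis, Rps4l a copy of Rps4x, and Rpl7l1 a relative of Rpl7 that takes part in ribosome assembly.

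Start regions are printed for genes the results turn on: Rplp0, whose level moved least among the bright members, Rpl6, which rose, Rpl19 and Rps10, which fell, and Rps28, whose probe sets disagreed. Each runs from 60 bases before an annotated start to 20 after it, from RefSeq on GRCm38.p6, read 5′ to 3′ on the strand of the gene. Matches to the ETS core CCGGAAG on either strand are in capitals. Rpl19 had 2 start windows, and the printed one was chosen by its number of matches to the letters counted below. Rplp0 lies at chr5:115559407-115559486 on the plus strand, Rpl6 at chr5:121204441-121204520 on the plus strand, Rpl19 at chr11:98026650-98026729 on the plus strand, Rps10 at chr17:27635225-27635304 on the minus strand and Rps28 at chr17:33824543-33824622 on the minus strand.
Rplp0: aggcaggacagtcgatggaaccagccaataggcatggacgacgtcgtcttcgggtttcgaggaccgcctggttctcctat
Rpl6: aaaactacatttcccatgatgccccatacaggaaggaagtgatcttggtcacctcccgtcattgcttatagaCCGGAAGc
Rpl19: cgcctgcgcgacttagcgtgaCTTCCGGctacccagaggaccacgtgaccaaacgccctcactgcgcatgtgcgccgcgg
Rps10: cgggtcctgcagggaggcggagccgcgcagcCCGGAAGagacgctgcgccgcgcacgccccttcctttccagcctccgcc
Rps28: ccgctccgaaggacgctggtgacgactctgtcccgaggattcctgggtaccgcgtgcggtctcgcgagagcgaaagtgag

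Of the 35 genes, 28 had a start window in RefSeq, from 250 bases before to 50 after the start. CCGGAAG stood in the windows of 12 of the 28 (42.86%), against 9.93% of 27025 genes. The letters AAGATGG, the core bound by YY1, were found on either strand in 7 of the 28 (25%), against 7.28% of all genes, and AAG, which ends the ETS core and begins this one, lets matches overlap. A run of 8 pyrimidines within 25 bases of the start was present in 13 of the 28 (46.43%), against 22.25% of all genes. Rpl6, which rose in WT liver, and Rpl19 and Rps10, which fell, share the ETS letters in the stretches printed. The Rpl19 stretch was itself chosen by its matches, so its share in this is no independent observation. A match is a description of the letters, not a bound site.

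Levels are log2 signals after quantile normalization, on which the median of every array is 4.103. A probe set was tested where it stood above its array median in at least 2 arrays, which 7261 probe sets did. Of the 49 members, 38 probe sets of 29 genes were tested, 17 of the large and 21 of the small subunit, with means over all arrays from 3.66 to 10.94. The 11 that were not tested had means from 2.07 to 3.67. They were Rpl39, Rpl39l, Rpl7l1, Rps14, Rps15 and Rps20, which had no other probe set, and second probe sets of Rpl38, Rpl7, Rps24, Rps4l and Rps4x. Of the 38 tested, 19 had a mean of 7 or more and are called the brighter members. Brightness differs between probe sets for reasons of probe affinity, so no order of abundance between genes is drawn.

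All 9 hepatocyte markers were bright enough to be tested, from Ass1 at 5.42 to 6.07 up to Alb at 12.10 to 12.62, so markers of the labelled tissue were present. The Mpg probe set, for the gene of Aag, was dim and lay between 2.38 and 2.87 in the 12 WT arrays and between 2.27 and 2.60 in the 16 Aag arrays. Its ranges overlap, and which part of the gene it reads is not given, so it is a weak check of the genotype labels. The 9 hybridization controls, bacterial sequences added to the sample, divide the arrays into a high set of 5 (3 WT untreated arrays and replicates 3 and 4 of the Aag untreated arrays, control means 10.25 to 11.65) and a lower set of 23 (6.42 to 9.22). The signal of the 3′ Gapdh control minus that of the 5′ one was 0.632 to 0.924 in the high set and -0.37 to 0.21 in the lower set. All WT untreated arrays are in the high set and all treated arrays in the lower set, so in WT the response to MMS and the array set cannot be told apart. The 2 WT 6 h arrays correlated at 0.836 over all tested probe sets, against at least 0.914 within every other group, while WT 6 h replicate 1 correlated at 0.983 with Aag 6 h replicate 1. In bulk tissue, less RNA per cell and fewer cells of a type cannot be told apart.

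The range of the 10 group means had a median of 0.545 over the 38 members and 0.49 over all tested probe sets. It was under 0.5 in 11 of 38 members (28.9%) against 51.4% of all, so fewer members had a narrow range. It was over 1 in 3 members (7.895%) against 10.949% of all, a share near the background. Rplp0, the stalk protein of the large subunit that is often used as a reference gene, had group means from 8.99 to 9.20. Its untreated WT arrays were at 9.09, 9.12 and 9.01 and its untreated Aag arrays at 8.99, 9.06, 9.13 and 9.12. The groups overlap, and its largest difference in a response to MMS was 0.12, in WT at 48 h (adjusted p from 0.657 to 0.984 over the 8 responses in limma). The narrowest ranges belonged to dim probe sets, 1 of Rpl22 with 0.174 and 1 of Rps29 with 0.203. The widest were those of the r_at probe set of Rps28 (2.19), of Rps27l (1.43) and of Rps24 (1.04).

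**Figure D1:**
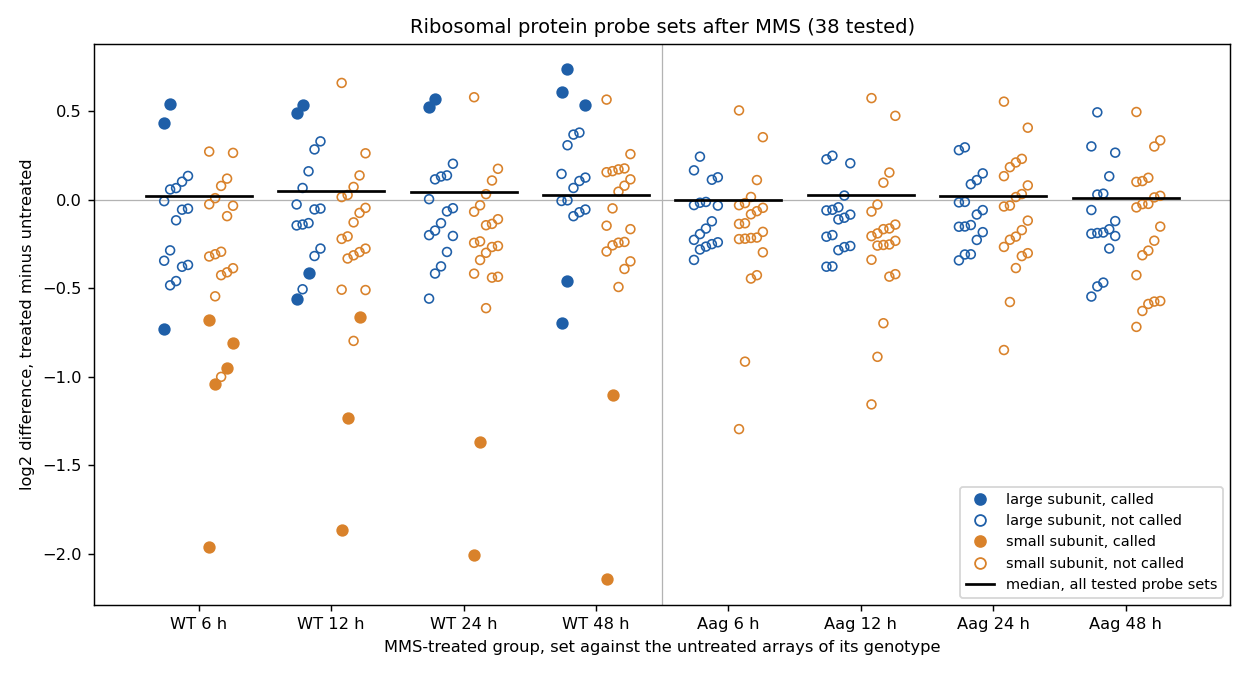
Log2 difference of each of the 38 tested ribosomal protein probe sets, treated minus untreated arrays of the same genotype, for WT and Aag at 6, 12, 24 and 48 h after MMS; filled points are called by limma at adjusted p under 0.05 and the black bar is the median of all 7261 tested probe sets. Filled points occur in the 4 WT responses, with large subunit probe sets on both sides of 0 and small subunit probe sets below it, and none in the 4 Aag responses.

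The first question is how WT liver changed after MMS. At 6 h 2 member probe sets rose and 6 fell (8 of 38, 21.1%), against 18.3% called among all tested probe sets, so the share was near the background. The median difference of the members was -0.29, that of all tested probe sets 0.02. At 12 h 2 rose and 5 fell (18.4%, background 22.3%), at 24 h 2 rose and 2 fell (10.5%, background 15.4%) and at 48 h 3 rose and 4 fell (18.4%, background 16.6%), with median differences of -0.14, -0.16 and 0.02. By subunit, the large one had 2 rises and 1 fall at 6 h, 2 and 2 at 12 h, 2 and 0 at 24 h, and 3 and 2 at 48 h. The small subunit had no rise and 5, 3, 2 and 2 falls. At 12, 24 and 48 h these falls were only those of 1 of 3 Rps28 probe sets, of the paralog Rps27l and, at 12 h, of Rps4l. The median differences of the small subunit were -0.32, -0.22, -0.24 and -0.15, those of the large subunit -0.06, -0.06, -0.07 and 0.11. The difference between the subunits was not tested.

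The counts depend on single arrays. Without WT 6 h replicate 1, 15 members were called at 6 h (1 higher, 14 lower; 39.5%, against 22.9% of all tested probe sets). Without WT untreated replicate 1, 5 were, beside 13.4% of all. At 12 h, 4 (10.5%) were called without WT untreated replicate 1, without WT untreated replicate 2 or without WT 12 h replicate 2, against 14.1% to 18.1% of all. At 24 h, 1 (2.63%) was called without either WT 24 h array, against 4.75% to 5.69%. At 48 h, 3 were called without WT untreated replicate 1, 4 without WT 48 h replicate 1 and 2 without WT 48 h replicate 2 (7.89%, 10.5% and 5.26%, against 13.1%, 10.7% and 6.68%). The 6 h calls were lost in full with array weights from limma, which let noisy arrays count less (0 of 7261 probe sets called), and with only the groups compared in the fit (30 called, none a member). At 12, 24 and 48 h array weights gave 8, 4 and 3 members, beside 1879, 1338 and 612 of all 7261 probe sets. With only the groups compared in the fit 10, 2 and 2 members were called, beside 1484, 502 and 473 of all. Once the array set was added to the fit, 0 members were called at any of the 4 times, beside 137, 226, 259 and 241 of all 7261 probe sets. The medians of the members with that term were -0.05, 0.05, 0.08 and 0.22. Only the 4 Aag untreated arrays inform that term, since no other group has arrays on both sides.

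Rpl6, a large subunit protein, rose at all 4 times and is the clearest rise among the bright members. The WT untreated arrays were at 8.43, 8.25 and 8.58, the 6 h arrays at 8.98 and 8.73, the 12 h arrays all at 8.96, the 24 h arrays at 8.91 and 8.98 and the 48 h arrays at 9.15 and 9.17. Every treated WT array lay above every untreated one. Relative to untreated WT liver Rpl6 was higher by 0.43 at 6 h (SE 0.14, adjusted p = 0.0406), 0.54 at 12 h (SE 0.13, adjusted p = 0.0049), 0.53 at 24 h (SE 0.14, adjusted p = 0.0159) and 0.74 at 48 h (SE 0.14, adjusted p = 0.0014), 1.67-fold at the last. In the Aag untreated arrays Rpl6 did not follow the array set: the high set stood at 8.75 and the lower at 8.81, and these arrays overlap. With the array set as a term the WT differences were 0.38, 0.48, 0.47 and 0.68, with adjusted p from 0.0835 to 0.417. The 12 h and 48 h calls held whichever array was left out, though array weights took the adjusted p at 48 h to 0.0543. The 6 h call was lost without WT untreated replicate 1, WT untreated replicate 2 or WT 6 h replicate 1 (adjusted p up to 0.209), and the 24 h call without WT untreated replicate 2 or either WT 24 h array (up to 0.137).

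Rpl7a, another large subunit protein, was called at 48 h only. Its WT untreated arrays were all between 7.70 and 7.71, the 6 h arrays at 8.08 and 7.44, the 12 h arrays at 7.72, 7.91 and 7.96, the 24 h arrays at 7.98 and 7.83 and the 48 h arrays at 8.16 and 8.31. The 48 h difference was 0.53 (SE 0.17, adjusted p = 0.0383), and this call was lost whichever of the 5 arrays compared was left out, with an adjusted p of up to 0.239. Rpl22, a large subunit protein that binds RNA and has a paralog able to take its place, rose on its probe set with a mean of 4.50 by 0.54, 0.49, 0.57 and 0.61 at 6, 12, 24 and 48 h (adjusted p from 0.0072 to 0.0154). That probe set is dim: the WT untreated arrays were at 3.94, 3.86 and 3.97, and the treated WT arrays lay between 4.14 and 4.79. The other Rpl22 probe set, with a mean of 4.56, gave -0.12, -0.05, -0.17 and -0.07, and none of these was called, so the rise rests on 1 of the 2 probe sets. The 6 h rise was 0.22 without WT 6 h replicate 1 (adjusted p = 0.309), and the 24 h and 48 h calls were lost without replicate 2 of those groups (adjusted p = 0.179 and 0.177).

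**Figure D2:**
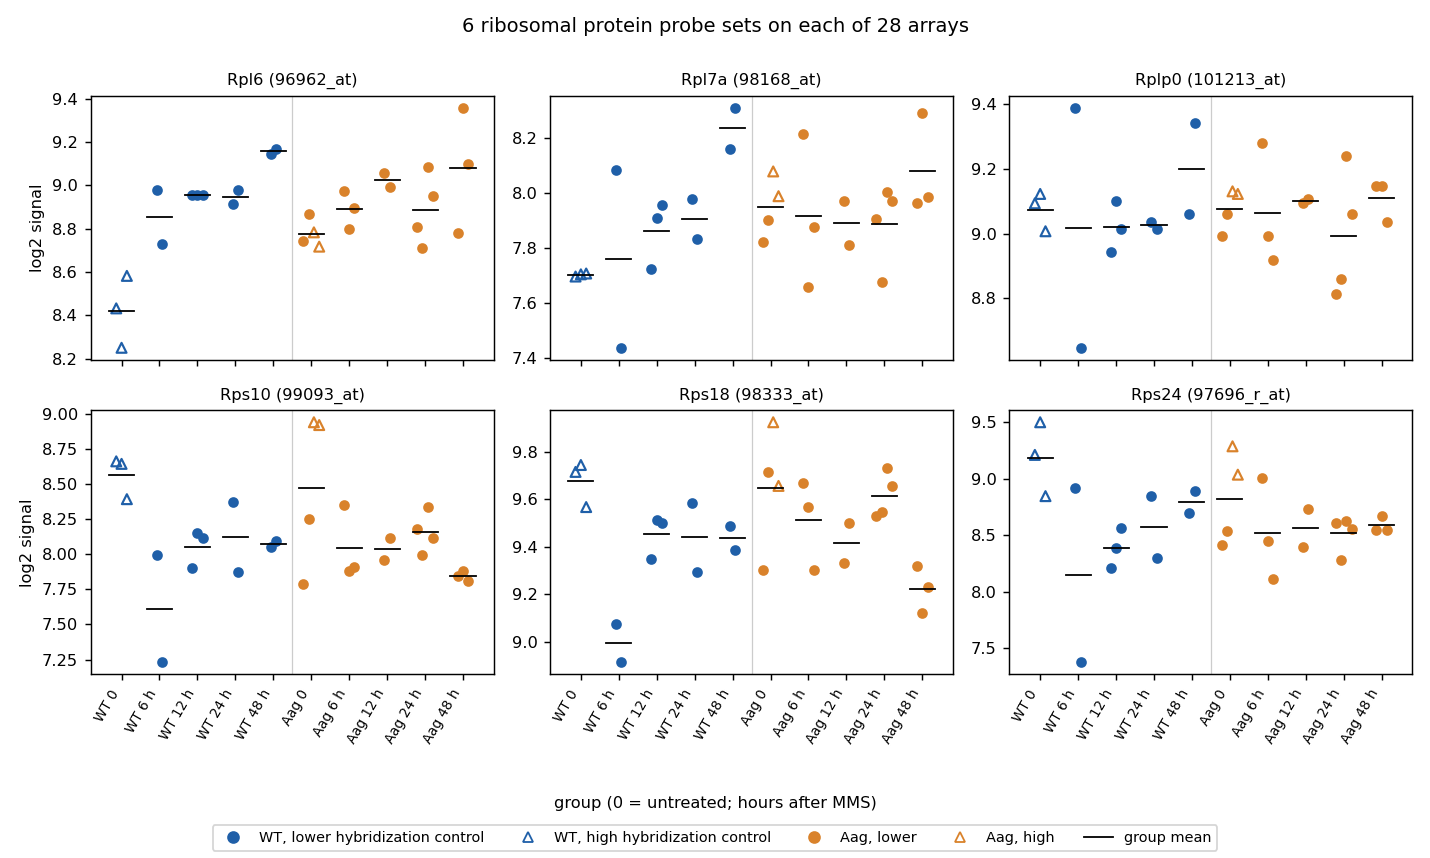
Quantile-normalized log2 signal of Rpl6, Rpl7a, Rplp0, Rps10, Rps18 and Rps24 on each of the 28 arrays, by group, with bars at group means; open triangles are the 5 arrays of the high hybridization control set. The untreated WT arrays are low for Rpl6 and high for Rps10, and for Rps10 and Rps24 the open Aag untreated triangles lie above the filled ones.

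Among the small subunit, Rps10, Rps18, Rps19 and Rps24 fell in WT liver at 6 h. Rps18, a protein of the head of the small subunit, was at 9.72, 9.74 and 9.57 untreated and at 9.07 and 8.91 at 6 h. These arrays do not overlap, and the difference was -0.68 (SE 0.15, adjusted p = 0.0034). At 12, 24 and 48 h it was -0.22, -0.24 and -0.24, not called. Rps18 kept its 6 h call whichever of the 5 arrays was left out (adjusted p up to 0.0197).

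Rps10, also a protein of the head, was at 8.66, 8.64 and 8.39 untreated and at 7.99 and 7.23 at 6 h. The groups do not overlap, and the difference was -0.95 (SE 0.26, adjusted p = 0.0152). Rps19, the protein first found mutated in Diamond-Blackfan anaemia, was at 6.44, 6.24 and 6.14 untreated and at 5.99 and 4.94 at 6 h, a difference of -0.81 (SE 0.26, adjusted p = 0.0326). Rps24, on its tested probe set with 9.21, 9.50 and 8.85 untreated against 8.92 and 7.38, gave -1.04 (SE 0.33, adjusted p = 0.0306). Its groups overlap, since replicate 1 at 6 h lay above the lowest untreated array. The annotation ties this probe set to the same sequence record as an Rpl7 probe set, so which of the genes it reads is uncertain.

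WT 6 h replicate 2 carries much of the falls of Rps10, Rps19 and Rps24. Over all members the median difference at 6 h was -0.20 without that array and -0.29 with it. WT 6 h replicate 2 was the lowest of all 28 arrays for 15 of the 38 members and for 13 of the 19 brighter ones. The share of all tested probe sets lowest in it is not given here, so these counts are not read as a trait of the members. The median of WT 6 h replicate 2 over the brighter members was 7.79, against 8.62 in WT 6 h replicate 1 and 8.22 to 8.78 in the other 26 arrays. Without it the 6 h differences were -0.57 for Rps10, -0.28 for Rps19 and -0.27 for Rps24, with adjusted p of 0.162, 0.453 and 0.553. The calls of Rps19 and Rps24 were also lost without WT untreated replicate 1 or 2 (adjusted p from 0.056 to 0.0969). Whether that array or its liver sets the 6 h values was not tested.

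**Figure D3:**
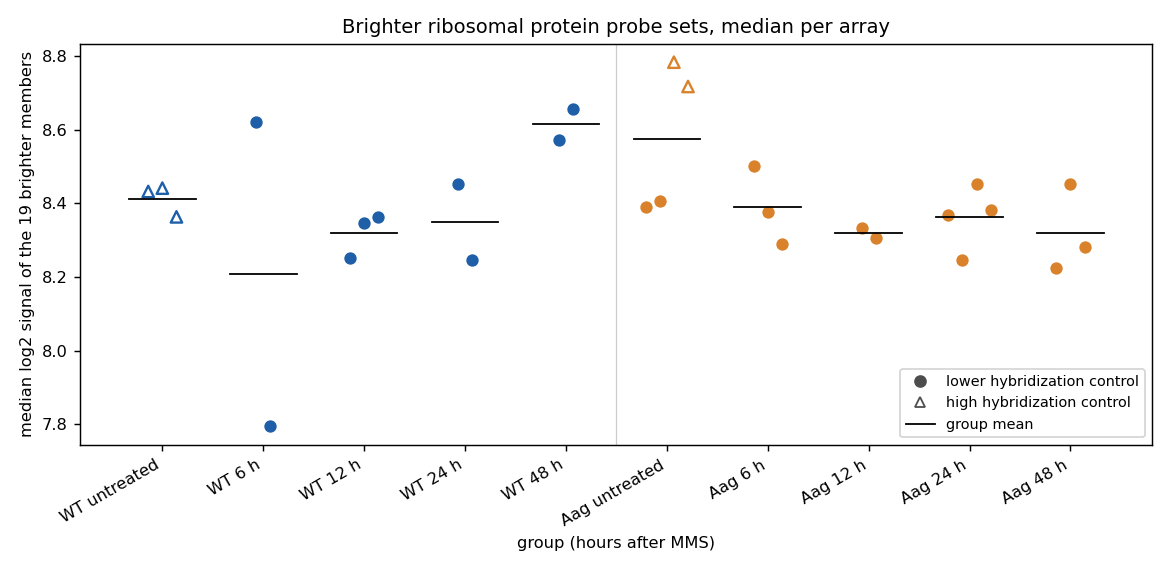
Median log2 signal of the 19 brighter ribosomal protein probe sets on each array, by group, with group means as bars and the high hybridization control set as open triangles. WT 6 h replicate 2 lies at 7.79, below all other arrays, and the 2 open Aag untreated arrays are the highest of all.

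Rpl19, a large subunit protein at the bridge between the subunits, fell on its bright probe set, with a mean of 8.57. The WT untreated arrays were at 9.12, 8.85 and 8.80, and the 6 h arrays at 8.23 and 8.15. The difference was -0.73 at 6 h (SE 0.16, adjusted p = 0.0033), which held whichever array was left out, then -0.41 at 12 h (adjusted p = 0.0391) and -0.46 at 48 h (adjusted p = 0.0494). The dimmer Rpl19 probe set, with a mean of 5.89, gave 0.07, 0.28 and -0.09 at these times, not called. Rpl13a, known for a second role in silencing inflammatory messages, was dim and fell by 0.56 at 12 h (adjusted p = 0.0465) and by 0.70 at 48 h (adjusted p = 0.0346). Rps4l fell by 0.66 at 12 h (adjusted p = 0.0421), in limma as all these values. Leaving out WT untreated replicate 1 ended each of the calls of Rpl13a and Rps4l and the later ones of Rpl19 (adjusted p from 0.0746 to 0.209), and leaving out other single arrays ended some of them.

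Rps28, a short protein near the exit of the message channel, had the largest fall of all members, but on 1 of its 3 probe sets. These carry the suffixes r_at, f_at and plain at, and are named by them. On the r_at probe set, with a mean of 5.11, the WT untreated arrays were at 6.57, 7.19 and 6.26, the 6 h arrays at 3.66 and 5.76, and the WT arrays at 12, 24 and 48 h between 4.35 and 4.97. All treated WT arrays lay below all untreated ones. The differences were -1.96, -1.87, -2.01 and -2.14 (SE 0.46, 0.41, 0.46 and 0.46, adjusted p from 0.0025 to 0.0053), or 3.65-fold to 4.42-fold. The brightest Rps28 probe set, f_at, with a mean of 9.58, gave -0.31, 0.07, 0.03 and 0.18, and the plain one, with a mean of 8.86, gave -0.55, -0.30, -0.26 and -0.29, none of them called. The annotation gives the f_at and r_at probe sets the same sequence record.

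The untreated Aag arrays show how the Rps28 r_at probe set moved with the array set without any MMS. Replicates 3 and 4, in the high set, stood at 6.30 and 6.42, and replicates 1 and 2, in the lower set, at 4.95 and 5.46. Once the array set was added to the fit, the WT differences were -0.81, -0.71, -0.85 and -0.99, and the smallest adjusted p was 0.379. Leaving out replicate 1 of WT 6 h gave -0.91 at that time (adjusted p = 0.146), and leaving out replicate 1 of WT 24 h gave -1.84 (adjusted p = 0.0703).

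Rps27l was also highest in untreated WT liver. Its WT untreated arrays were at 6.10, 6.53 and 5.32, the 12 h arrays at 4.95, 4.60 and 4.70 and the 24 h arrays at 4.63 and 4.59. It fell by 1.23 at 12 h (SE 0.33, adjusted p = 0.0097), 1.37 at 24 h (SE 0.37, adjusted p = 0.0139) and 1.11 at 48 h (SE 0.37, adjusted p = 0.0415), the last with overlapping arrays. At 6 h its arrays stood far apart, at 4.20 and 5.76, and the adjusted p was 0.0595. Among untreated Aag arrays it stood at 5.75 and 5.98 in the high set and at 5.03 and 5.12 in the lower set. With the array set as a term the 3 called falls were -0.43, -0.57 and -0.31, not called. Without WT untreated replicate 2 none of the 3 was called (adjusted p = 0.0622, 0.0673 and 0.16), nor was the 48 h fall without WT 48 h replicate 2 (-0.61, adjusted p = 0.458). Rps27, its standard relative, differed from untreated WT liver by 0.14 or less in size at all 4 times.

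**Figure D4:**
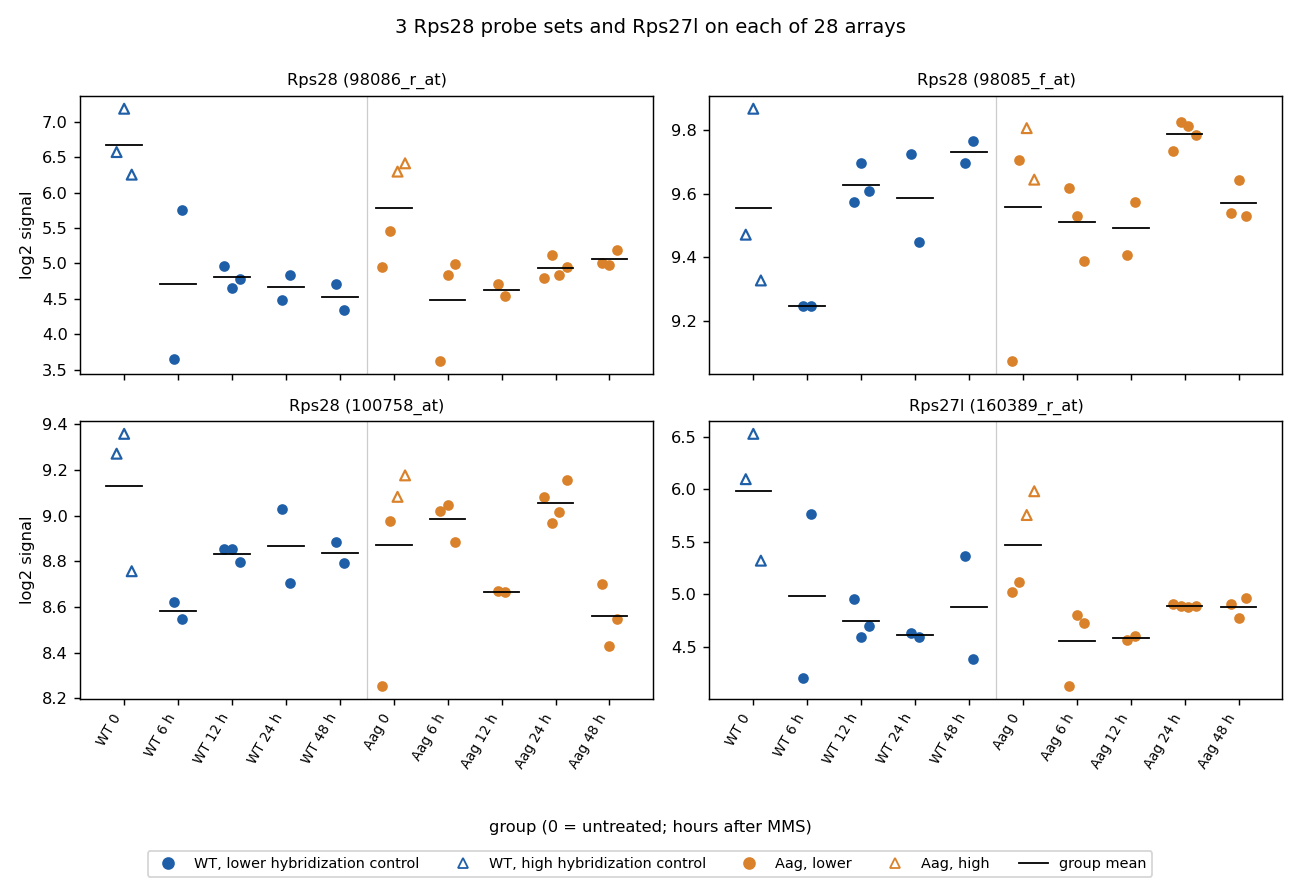
Log2 signal of the 3 Rps28 probe sets and of Rps27l on each of the 28 arrays, by group, with bars at group means and the high hybridization control set as open triangles. For the r_at probe set of Rps28 and for Rps27l the open triangles of the Aag untreated group lie above its filled points, while the f_at probe set shows no such fall after MMS in WT.

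Over all members, the high-set arrays of untreated Aag liver stood above the lower-set arrays by a median of 0.277, and by -0.026 over all tested probe sets. The difference was positive for 25 of 38 members, against 3381 of all 7261 tested probe sets. It was positive for 16 of the 19 brighter members, where its median was 0.406. Values for all tested probe sets of that brightness are not given here. The arrays of the 2 sets did not overlap for 29 of 38 members (76.3%), against 62.3% of all tested probe sets. The members that fell in WT liver were higher in the high set, Rps10 by 0.909, Rps19 by 0.754, Rps24 by 0.685, Rpl13a by 0.710, Rps4l by 0.534, Rpl19 by 0.457 and Rps18 by 0.282, where the arrays overlap. Among the members that rose, Rpl6 and the rising Rpl22 probe set differed by -0.06 and 0.00 between the sets. Rpl7a was higher in the high set by 0.172, and its arrays do not overlap. Aag untreated replicate 3, in the high set, also had the high Cyp2b9 signal given below, so the 2 sets differ in this too.

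In Aag liver 0 of 38 members were called at 6 h (background 0.992%), at 12 h (0.303%), at 24 h (1.29%) and at 48 h (0.826%) by limma. At an unadjusted p under 0.05 the counts were 3, 4, 4 and 9. The share of all tested probe sets at that unadjusted threshold is not given here or for the comparisons below. Such counts are therefore not read as a trait of the members. The median differences were -0.14, -0.18, -0.07 and -0.14, and 8, 8, 14 and 14 of the 38 were positive. The signal of Cyp2b9, a P450 typical of female mouse liver, was 7.76 to 8.17 as deposited in 3 arrays, which are replicates 1 and 2 of Aag at 24 h and replicate 3 of untreated Aag, against 2.59 to 4.15 in the other 25. Without these 3 arrays the 24 h median was 0.01, with 19 of 38 positive, and 1 of 7261 probe sets was called at 24 h in place of 94. Without Aag untreated replicate 1 the member counts were 2, 1, 1 and 7, while 3.59%, 1.83%, 4.45% and 9.21% of all tested probe sets were called. Within the lower set, with replicates 1 and 2 as the untreated arrays, 0 were called and the medians were 0.01, 0.00, 0.04 and -0.03. With array weights 15, 7, 4 and 13 members were called (39.5%, 18.4%, 10.5% and 34.2%), against 24%, 12.5%, 10.5% and 21.3% of all.

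The largest Aag difference was again that of Rps28 r_at, with -1.30 at 6 h (adjusted p = 0.095), -1.16 at 12 h, -0.85 at 24 h and -0.72 at 48 h. On this probe set the high-set untreated Aag arrays stood above the lower-set ones by 1.15. Rpsa, the small subunit protein also known as the laminin receptor, gave 0.35, 0.47, 0.41 and 0.30 in Aag liver, with adjusted p of 0.125, 0.105, 0.0527 and 0.176. Its Aag untreated arrays were at 7.74, 7.61, 7.42 and 7.31, and the treated Aag arrays lay between 7.74 and 8.09. The untreated arrays had a mean of 7.37 in the high set and 7.68 in the lower set, without overlap. All treated arrays are in the lower set, so part of these Rpsa differences cannot be told apart from the array set. In WT liver Rpsa gave 0.08, 0.26, 0.11 and -0.05, not called. Rps18 at 48 h in Aag liver gave -0.43 (adjusted p = 0.0909), with overlapping arrays.

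The next question is whether the genotypes differ. In untreated liver 1 of 38 members was called (2.63%), against a background of 4.94%. It was the same probe set of Rpl22 that rose in WT, with 3.94, 3.86 and 3.97 in WT and 4.60, 4.56, 4.46 and 4.70 in Aag, a difference of 0.66 (SE 0.12, adjusted p = 0.0047). The groups do not overlap, and the call held whichever of the 7 arrays was left out, and also when the array set was added to the fit (0.66, adjusted p = 0.0201). It was lost with array weights (adjusted p = 0.059) and with only the groups compared (0.137). Treated arrays of both genotypes lay from 4.14 to 4.97, all above the untreated WT arrays, though several lay below every untreated Aag array. The lowest, WT 6 h replicate 2 at 4.14, was nearer to the untreated WT arrays. The other Rpl22 probe set differed by -0.05 between the untreated groups. Rpl6 was also higher in untreated Aag liver, by 0.36, with an adjusted p of 0.0851.

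Between treated groups of the same time, Aag against WT, 0 of 38 members were called at 6 h (background 0.11%), 12 h (0.0138%), 24 h (0%) and 48 h (0%), with 3, 0, 0 and 1 at an unadjusted p under 0.05. The median differences were 0.07, 0.01, 0.06 and -0.15. Differences ran from -0.27 to 0.18 at 12 h and from -0.21 to 0.31 at 24 h, and were wider at 6 h (-0.44 to 0.52) and 48 h (-0.62 to 0.53). Without WT 6 h replicate 1, which leaves replicate 2 alone in its group, 14 members were called at 6 h, 11 higher and 3 lower in Aag (36.8%, against 13.1% of all tested probe sets). Without replicate 2 instead, 0 were.

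The interaction of genotype and MMS, the Aag response minus the WT response, had 0 of 38 members called at 6 h (background 0.165%), 12 h (0.0826%), 24 h (0.0275%) and 48 h (0.248%), and 4, 1, 3 and 4 at an unadjusted p under 0.05. So the calls found in WT and not in Aag are not shown to differ between the genotypes. The largest interaction was that of Rps28 r_at at 48 h, 1.43 (SE 0.60, adjusted p = 0.286). The Rpl22 probe set with a mean of 4.50 gave -0.67 at 48 h (adjusted p = 0.132). Without WT 6 h replicate 1, 1 member was called at 6 h.

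Late and early treated arrays, which are all in the lower set, were also compared. Between 48 h and 6 h in WT liver 0 of 38 members were called (background 0.537%), with 8 at an unadjusted p under 0.05 and a median of 0.25, and 27 of 38 were higher at 48 h. Rpl41, the smallest ribosomal protein and the brightest member, gave 0.52 (adjusted p = 0.226), from 10.83 and 10.55 at 6 h and 11.34 and 11.10 at 48 h. Without WT 6 h replicate 1, 13 members were called, 12 of them higher at 48 h (34.2%, against 11.3% of all). In Aag liver 0 of 38 were called (background 0.0964%), with 4 at an unadjusted p under 0.05 and a median of 0.05.

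The probe sets with several ribosomal protein symbols, of which 34 were tested, had no rise in WT liver, unlike the members. Of these 34, 8, 8, 6 and 4 fell at 6, 12, 24 and 48 h, with medians of -0.44, -0.25, -0.13 and -0.03. Among all 7261 tested probe sets 18.3%, 22.3%, 15.4% and 16.6% were called in either direction, and 730, 776, 593 and 669 fell. In Aag liver 2 of the 34 fell at 6 h and 1 at 24 h, where 0.992% and 1.29% of all were called. They cannot be assigned to a single gene and are not named.

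Other genes of the pathway were counted from lists written from general knowledge. As background for these lists, of all 7261 tested probe sets 600 rose and 730 fell in WT at 6 h and 841 and 776 at 12 h. At 24 h 523 rose and 593 fell, and at 48 h 537 and 669. Of 16 tested probe sets of translation factors and other messages with a 5′ pyrimidine run, 2 rose and 1 fell at 6 h in WT liver, 2 and 2 at 12 h, 2 and 2 at 24 h and 3 and 2 at 48 h. Eif4b, a helper of the initiation helicase, was higher by 0.92 at 48 h (adjusted p = 0.000718), and Eef1b2, an exchange factor for the elongation factor eEF1A, lower by 1.40 (adjusted p = 0.0020). Fau, whose product includes a small subunit protein fused to a ubiquitin-like part, fell by 0.60 at 48 h (adjusted p = 0.0292). In Aag liver none of the 16 was called at any time.

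Of 45 ribosome assembly probe sets 8 rose and none fell in WT at 6 h, 6 rose and 1 fell at 12 h, 4 and 1 at 24 h and 3 and 1 at 48 h. The fall was each time that of 1 Mybbp1a probe set, while another Mybbp1a probe set was among the rises at 6 and 12 h. Sbds, which helps release a factor that keeps new large subunits inactive, was higher by 0.80 at 6 h (adjusted p = 0.000143). Of 12 RNA polymerase I probe sets 4, 4, 2 and 1 rose and none fell, with Polr1d, a shared subunit of polymerases I and III, higher by 0.82 at 6 h (adjusted p = 0.0059). Of 29 initiation factor probe sets 5 rose and 2 fell at 6 h, 4 and 3 at 12 h, 1 and 2 at 24 h and 2 and 3 at 48 h. Of 16 probe sets for control of ribosome synthesis 3 rose and 1 fell at 6 h, 3 and 1 at 12 h, 2 and 0 at 24 h and 1 and 1 at 48 h. Larp1, which binds the pyrimidine run of ribosomal protein messages, was lower by 0.51 at 6 h (adjusted p = 0.0152).

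Of 57 mitochondrial ribosomal protein probe sets 1 rose and 13 fell at 6 h, 0 and 11 at 12 h, 2 and 6 at 24 h and 2 and 7 at 48 h in WT, with medians of -0.24, -0.18, -0.11 and -0.06. Mrpl55 was lower by 0.91 at 6 h (adjusted p = 0.0085) in limma. In Aag liver the assembly, polymerase, initiation and control lists had 0 calls at all times, and the mitochondrial list 1 fall at 6 h and 1 rise at 24 h. In untreated liver, Aag against WT, Polr1d was higher by 0.80, Eif4b by 0.64, Eef1d, another exchange factor for eEF1A, by 0.58 and Sbds by 0.48, and Larp1 differed by -0.51 (adjusted p from 0.0064 to 0.0187). These signs are those of the WT responses, which share the untreated WT arrays. Over the 6 lists, with the numbers tested given above, 7 probe sets were higher and 3 lower in that comparison. Of all 7261 tested probe sets 158 were higher and 201 lower (4.94% called), so these counts are not read as a trait of the lists. The interaction at 48 h was called for Polr1d (-1.50, adjusted p = 0.0201) and Eef1d (-1.01, adjusted p = 0.0432) and for no other probe set of these lists at any time. Without the 3 arrays with high Cyp2b9, 0 of 7261 probe sets were called for it. These WT values share the untreated arrays of the high set. With the array set as a term, 137 to 259 of the 7261 probe sets were called in the 4 WT responses, against 1116 to 1617 without it.

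Markers of hepatocytes and of other cells moved in the same WT comparisons. Of 9 hepatocyte probe sets Hnf4a rose by 1.31, 1.00, 0.85 and 1.16 at the 4 times, Ttr fell by 1.03, 0.86, 0.65 and 0.39, and Pck1 rose at 12 h by 0.71. Their summed level was 13.87 to 14.11 in untreated and 13.89 to 14.18 in treated WT arrays. Of 2 red cell probe sets, 1 (Hba-a1) fell at all 4 times, and the log2 of their summed signal was 9.12 to 10.34 in WT untreated arrays and 8.01 to 8.72 in treated ones. Of 13 tested Kupffer cell probe sets 3 rose and 1 fell at 6 h, 2 rose and 3 fell at 12 h, and 1 (C1qb) rose at 24 h and 48 h. The summed level of all 17 Kupffer cell probe sets on the array, tested or not, was 9.09 to 9.47 in untreated and 8.90 to 9.33 in treated WT arrays. Of 11 lymphocyte probe sets 1, 2, 1 and 2 fell over the 4 times and 0 rose, and of 8 stellate cell probe sets 2, 3, 3 and 3 fell and 0, 1, 0 and 1 rose. Of the 2 tested endothelial probe sets 1 fell at 6, 12 and 24 h, and of 6 for cell division 1 fell at 12 h. Neither of the 2 tested neutrophil probe sets was called, and all 4 of cholangiocytes were too dim to test. The part of these cells in the ribosomal protein differences was not tested.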

How the data were processed

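Liver RNA was measured on 28 one-colour Affymetrix MG-U74Av2 arrays, 1 log2 signal per probe set in the authors' deposited values. No label names the unit; log2 was inferred from the range of the deposited values, 0.689 to 13.16. How the authors read, corrected, summarized and scaled the arrays are steps not given in the sources used here. Array medians spanned 0.215, so the 12422 non-control probe sets were quantile normalized here. Gene symbols came from the platform annotation, and all 35 member symbols were found in the reference table with 0 changed. Probe sets above their array median in at least 2 arrays (7261) were fitted with limma 3.58.1 in R 4.3.3, with 10 group means over 28 arrays, variances moderated along a trend, and Benjamini-Hochberg adjustment over all tested probe sets. A call is an adjusted p under 0.05. Figures used Python 3.11.15 and matplotlib 3.10.9. The fit was tested on simulated data.

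The number of arrays, 2 to 4 per group, limits the precision. Groups and replicate numbers came from the sample titles. Members, lists and comparisons were chosen with earlier results of these data known. Named are Rplp0, Rpsa and look-alike symbols always, up to 4 called rises and 4 called falls per comparison, genes whose probe sets disagree, untested members and the widest and narrowest spreads. Other lists name up to 4 called genes per comparison. Rpl7a at other times, Rps27, Rpl41, Rps18 in Aag, Cyp2b9, and Eef1d and the untreated and interaction values of the other lists were chosen after their values were seen. Alternatives were other scalings, no brightness filter, 1 value per gene, replicate block, array weights, only the groups compared, array set as a term or the lower set only, no female-typical arrays (the 3 with high Cyp2b9), and each array left out.

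Replicate numbers were not taken to pair the samples: the labels name no shared animal, and among comparisons with 3 or more shared numbers none had all its same-numbered arrays deviating together. With 2 shared numbers, Aag against WT at 6 h had correlations of 0.77 and 0.91, and the replicate 1 arrays of both groups had the lowest hybridization controls of all, 6.42 and 6.59.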

Additional observations from a re-analysis of the deposited data

Results flagged for a closer look

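In groups of 4 arrays, 76 member and group combinations were screened for an array far from the other 3, and 2 were found; chance marks about 1 group in 20. The dimmer Rpl10a probe set stood at 3.757 in Aag 24 h replicate 2, with the others between 4.225 and 4.282. The brighter Rps29 probe set stood at 4.912 in Aag untreated replicate 1, with the others between 4.279 and 4.361.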

How the results depend on the processing

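All 27 called member differences kept their sign with values as deposited, centring on medians, all probe sets kept, 1 mean per gene, the replicate block, array weights, only the groups compared, no female-typical arrays and each array left out. Calls kept were 14, 17, 27, 19, 23, 12, 11 and 25 of 27 for those settings in order, and 8 whichever array was left out. With the array set as a term 1 call and 24 signs were kept, and in WT Rpl13a turned to 0.152 at 12 h and 0.013 at 48 h, and the bright Rpl19 probe set to 0.0433 at 12 h. The cause was not tested.

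Counts of members called moved by more than 1.5 times as follows. WT at 6 h had 8, and 4 as deposited, 5 with median centring, 5 with gene means, 0 with array weights, 0 with only the groups compared, 0 with the array set and 5 to 15 with an array left out. WT at 12 h had 7, and 4 as deposited, with median centring and with gene means, 0 with the array set and from 4 with an array left out. WT at 24 h had 4, and 2 with the brightest probe set per gene or only the groups compared, 0 with the array set and from 1 with an array left out. WT at 48 h had 7, and 3 as deposited or with array weights, 4 with median centring or the brightest probe set, 2 with only the groups compared, 0 with the array set and from 2 with an array left out. Replicate block gave 4 at WT 48 h and moved no other count by that much; replicate numbers are shared only as numbers. For Aag against WT at 6 h, where same-numbered arrays deviated together, the block called 0 members and 6 of 7261 probe sets, against 0 and 8. Aag had 0 at 6, 12, 24 and 48 h, and 15, 7, 4 and 13 with array weights, up to 2, 1, 1 and 7 with an array left out, and 1 at 24 h as deposited or with gene means. Untreated Aag against WT had 1, and 3 of 49 with no brightness filter, where 1163 of 12422 probe sets were called. It had 0 with the brightest probe set (247 of 5487 called), array weights (19 of 7261) or only the groups compared (2 of 7261). Without WT 6 h replicate 1 there were 14 for Aag against WT at 6 h, 1 for the interaction at 6 h and 13 for WT 48 h against 6 h. With array weights 10 of 38 members were called for Aag 48 h against 6 h, beside 2123 of all 7261 tested probe sets. Adding the probe sets with several symbols, chosen after seeing the data, raised the number tested to 72. Of these, 16, 15, 10 and 11 were called in WT and 2 at 6 h and 1 at 24 h in Aag. In untreated liver 3 were called, and 1 for the interaction at 48 h. The array weights did not converge fully. In WT at 6, 12, 24 and 48 h, 1383, 1851, 1338 and 1238 of 7261 probe sets were called as deposited. Median centring called 1232, 1580, 1104 and 1142 of 7261. Gene means called 878, 1064, 727 and 799 of 5044, and the brightest probe set per gene 893, 1155, 759 and 792 of 5487. In Aag liver at 24 h, 141 of 7261 were called as deposited and 73 of 5044 with gene means.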
